A study of Mus musculus with 8 samples.

Results

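The cells described here are dividing macrophages from mouse tumours. They were chosen by measured counts, as droplet barcodes with at least 4 unique molecular identifiers (UMIs, each counting 1 captured transcript) over Mki67, Top2a, Birc5 and Cdca3. The same barcodes held at least 100 UMIs per 10000 over C1qa, C1qb, C1qc, Apoe and Lyz2, at most 1 UMI over Cd3d, Cd3e and Cd3g, and at most 1 over Ncr1 and Klrb1c. In all, 2937 of 37757 deposited barcodes met these limits, 377 and 502 in LNP-Sirpa replicates 1 and 2 and 1034 and 1024 in control replicates 1 and 2. Barcodes that met the phagocyte, T cell and NK cell limits, whatever their cycling UMIs, are called gated macrophages below (19144 barcodes). Those with no UMI of the 4 cycling genes, 10891 barcodes, are called non-cycling macrophages, and the 5316 with 1 to 3 such UMIs belong to neither state.

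The series measured RNA of CD45+ cells, a marker of blood-derived cells, sorted from MC38 tumours by droplet single-cell sequencing. MC38 is a mouse colon carcinoma line, and the labels give a wild-type genotype to every sample. LNP-Sirpa samples (2 libraries) came from tumours treated with an agent of that name, which the series title ties to degradation of SIRPα directed at the tumour, and 2 libraries were controls. What the controls received and whether each library came from its own animal are not stated, so each p-value reflects the spread among 4 libraries, part or all of which may be technical. All libraries carry 1 batch label, and ages and doses are not given. The 4 matched oligo libraries were not analysed here.

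A macrophage that enters the cell cycle first copies its DNA in S phase, when the MCM helicase, nucleotide synthesis enzymes and histones are made, and then builds a spindle and divides in G2 and M phase, when cyclins A and B, mitotic kinases and kinesins are made. Genes of S phase are known targets of E2F factors, and genes of G2 and M phase of the DREAM and MuvB complexes with B-MYB and FOXM1, which act at CHR and CCAAT elements. Many tissue macrophages renew by division in place under CSF1, while others arise from blood monocytes. The Sirpa gene encodes SIRPα, through which a phagocyte reads CD47 on other cells as a signal not to engulf them.

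Cycling macrophages held a median of 10803, 12360 UMIs and 3163, 3186 genes per cell in LNP-Sirpa replicates 1 and 2, and 11606, 10506 UMIs and 3312, 3136 genes in control replicates 1 and 2. Non-cycling macrophages held fewer, with medians of 5408, 7266 UMIs in LNP-Sirpa and 5702, 5268 in control. Summed over cells, the cycling macrophages gave 4516321 and 6684870 UMIs in LNP-Sirpa and 13402753 and 12137293 in control, so a difference in LNP-Sirpa replicate 1 rests on the fewest transcripts. Levels below are UMIs per 1000000 of these sums (CPM), scaled by TMM factors within each state. UMIs of 1 library share its amplification, and intervals of shares cover counting error only.

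The label was checked against macrophage genes that took no part in the choice. Csf1r, the receptor of the growth factor CSF1, stood at 384 and 381 CPM in cycling macrophages of LNP-Sirpa and at 600.1 and 604 CPM in those of control. Adgre1, which encodes the F4/80 antigen, had 118 and 96.4 CPM in LNP-Sirpa and 175 and 173 CPM in control. Cd68, a lysosomal protein of phagocytes, had 482 and 617 CPM in LNP-Sirpa and 619.9 and 597 CPM in control. All 8 macrophage markers outside the rule were detected in every library, and none of the macrophage markers goes against the name.

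Transcripts of other cell types were also looked for. At least 2 UMIs of the T cell receptor constant chains Trac, Trbc1 and Trbc2 were held by 6.63% and 2.79% of cycling macrophages in LNP-Sirpa and by 1.64% and 2.83% in control. At least 10 UMIs of the neutrophil genes S100a8 and S100a9 were held by 2.65% and 0.797% in LNP-Sirpa and by 0.387% and 0.195% in control. At least 2 UMIs of the dendritic cell genes Flt3, Xcr1 and Clec9a were held by 1.06% and 0.199% in LNP-Sirpa and by 1.93% and 2.93% in control. LNP-Sirpa replicate 1 thus carried the highest share of T cell and neutrophil transcripts, and the control libraries that of dendritic transcripts. Some of these markers also differed with the cycling state. Among non-cycling macrophages the dendritic share was 0.926% and 0.167% in LNP-Sirpa and 0.271% and 0.401% in control, so it was higher in the cycling state of both control libraries (20 and 30 cycling cells), while the LNP-Sirpa shares in that state rest on 4 and 1 cells. The 12 dendritic markers summed to 1.40 and 1.29 times the non-cycling level in LNP-Sirpa and 2.02 and 1.31 times in control. The T receptor share among non-cycling macrophages was 4.39% and 1.92% in LNP-Sirpa and 0.769% and 1.82% in control, again lower than in the deeper cycling cells of each library, while the 13 T cell markers summed to 0.903 and 0.740 times the non-cycling level in LNP-Sirpa and 0.897 and 0.756 times in control. At least 5 UMIs of collagen genes were held by 1.33% and 0.398% of cycling macrophages in LNP-Sirpa (5 and 2 cells) and by 1.35% and 1.66% in control. Among non-cycling macrophages these shares were 0.293% and 0.209% in LNP-Sirpa and 0.271% and 0.637% in control. The part of all these markers in the differences between the states was not tested. The limits on T and NK genes shape membership unequally too. Of all barcodes with at least 4 cycling UMIs, the macrophages were 28.6% and 47.9% in LNP-Sirpa and 66.8% and 63.6% in control, and 604 and 260 such barcodes in LNP-Sirpa against 149 and 317 in control held more than 1 Cd3 UMI.

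The cycling genes that chose the cells varied widely among them. The median was 9 and 9 UMIs over the 4 genes in LNP-Sirpa and 11 and 10 in control, and the highest cell of each library held 76 and 69 in LNP-Sirpa and 91 and 102 in control. The floor of 4 falls in a continuous range: 71 and 69 gated cells in LNP-Sirpa and 133 and 142 in control held exactly 4 UMIs, and 97 and 107 in LNP-Sirpa and 243 and 192 in control held 3. Among barcodes rich in the neutrophil genes S100a8 and S100a9, mature cells that do not divide, 3 of 181 and 1 of 118 in LNP-Sirpa and 0 of 14 and 0 of 16 in control held at least 4 cycling UMIs, at median depths of 2143 and 1886 UMIs in LNP-Sirpa and 2347 and 1474 in control.

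Cycling cells made up a smaller part of the gated macrophages in both LNP-Sirpa libraries than in both control libraries, though with 2 libraries a group the exact permutation test used for shares cannot pass. The share was 11.5% in LNP-Sirpa replicate 1 (95% Wilson interval 10.5 to 12.7) and 12.98% in replicate 2 (11.96 to 14.1). It was 21.5% in control replicate 1 (20.3 to 22.7) and 14.2% in replicate 2 (13.4 to 15.1). The means were 12.3 ± 1.03% in LNP-Sirpa and 17.9 ± 5.11% in control (SD, n = 2 each), a difference of -5.59 percentage points, with a two-sided exact permutation p of 0.333, the smallest that 2 libraries against 2 allow. The groups did not overlap, but LNP-Sirpa replicate 2 and control replicate 2 lay close, with overlapping intervals, and control replicate 1 stood apart. Without control replicate 1 the difference was -1.98 points, and without control replicate 2 it was -9.21 points.

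The order of the libraries was the same at equal depth. With every cell thinned to 3000 UMIs and at least 2 cycling UMIs required, 12.1% and 12.4% of gated macrophages were cycling in LNP-Sirpa, against 22.99% and 15.1% in control. That left out shallower cells, 830 and 580 in LNP-Sirpa and 1102 and 1699 in control. Taken over all CD45+ barcodes instead, cycling macrophages were 3.64% and 5.57% in LNP-Sirpa and 13.8% and 9.40% in control, a share that also moves with the number of other leukocytes.

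**Figure D1:**
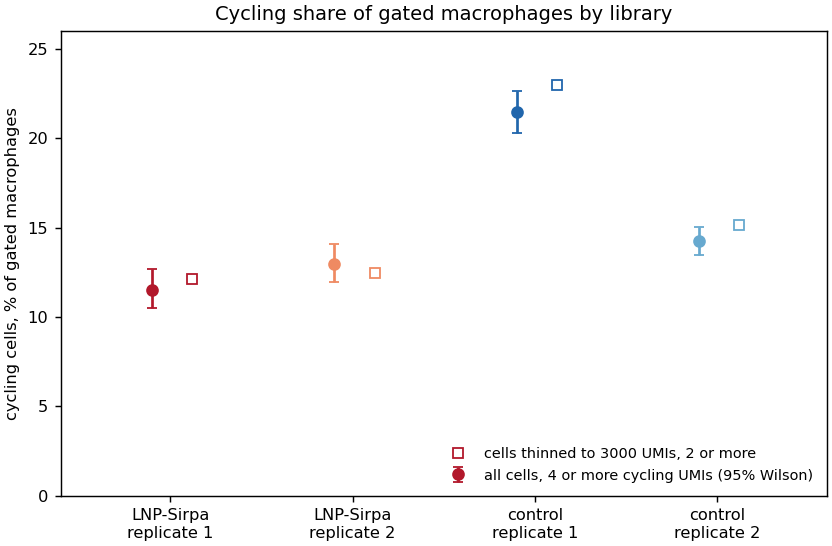
Share of gated macrophages that were cycling (vertical axis, percent) in each library; filled points with bars are all cells with their 95% Wilson interval, and open squares are cells thinned to 3000 UMIs. The LNP-Sirpa libraries lie at 11.5% and 12.98%, below the control libraries at 21.5% and 14.2%.

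Most cell cycle genes outside the rule were higher in the cycling state, as given below. For background, 3095 genes had a mean of at least 50 CPM in the higher state, genes of the rule among them. Their log2 ratio of cycling over non-cycling CPM, with 5 CPM added to each, had a median of 0.02 over genes. By this measure 37.8% of genes were higher and 28.9% lower in cycling macrophages of all 4 libraries. With TMM factors taken over the 8 sums together the median was -0.07 and the split became 22.9% higher and 44.1% lower. These ratios are a description with no test, since the same cells were split by 4 cycling genes.

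The gene with the highest ratio was Pclaf, which binds the sliding clamp PCNA during DNA synthesis. It had 284 and 414 CPM in cycling against 12.3 and 17.9 CPM in non-cycling macrophages of LNP-Sirpa, and 353 and 371 against 19.1 and 11.95 CPM in control. Cenpf, a kinetochore protein, had 122 and 101 CPM in cycling against 3.67 and 2.72 CPM in non-cycling macrophages of LNP-Sirpa, and 129.7 and 129.8 against 5.63 and 3.47 CPM in control. Both stood many-fold higher in the cycling state of each library, with no overlap between the states. Ccna2, cyclin A2, had a median log2 ratio of 3.72 over the libraries (range 3.59 to 3.79). Prc1, which bundles microtubules of the central spindle, followed at 3.63 (3.32 to 3.72), and Ube2c, which tags mitotic proteins for degradation with the anaphase-promoting complex, at 3.57 (3.30 to 3.67). The other 10 of the 15 highest were H1f5, Plk1, Tpx2, Nusap1, Cenpe, Kif23, Cdca8, Ccnb2, Stmn1 and Lockd, a linker histone, the mitotic kinase Plk1 and spindle proteins among them, with medians of 3.26 to 3.56. The spread over libraries was small beside the distance from 0.

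All 50 S phase genes were higher in the cycling state of every library, and 59 of 60 G2 and M phase genes were. The S phase list summed to 2271 and 3008 CPM in cycling against 683.7 and 788.4 CPM in non-cycling macrophages of LNP-Sirpa, and to 2803 and 3016 against 790.5 and 690.8 CPM in control. That is 3.32 and 3.82 times the non-cycling level in LNP-Sirpa and 3.55 and 4.37 times in control. The G2 and M list stood further above its non-cycling level, at 6.29 and 6.25 times in LNP-Sirpa and 6.50 and 6.98 times in control. Its exception was Pttg1, securin, which keeps sister chromatids from separating until anaphase. Pttg1 had 71.7 and 56.7 CPM in cycling against 77.7 and 60.7 CPM in non-cycling macrophages of LNP-Sirpa, and 47.5 and 48.6 against 44.7 and 49.5 CPM in control. This gene thus overlapped between the states.

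Within S phase the genes differed in size. Tk1, thymidine kinase, had 80.5 and 128 CPM in cycling against 5.72 and 9.59 CPM in non-cycling macrophages of LNP-Sirpa, and 150.4 and 167 against 14.9 and 11.8 CPM in control. Rrm2, the regulated subunit of ribonucleotide reductase, had a median log2 ratio of 2.77 (2.27 to 3.17). The helicase subunits stood lower, Mcm5 at 1.56 (1.35 to 1.82), Mcm3 at 1.05 (0.94 to 1.19) and Mcm2 at 0.92 (0.90 to 1.14), and non-cycling macrophages held them as well, Mcm2 at 20.1 to 22.5 CPM. All 15 genes of the replication-dependent histone list found in the files were higher in the cycling state of every library (14 with TMM factors over the 8 sums together). Their sums were 2.97 and 3.09 times the non-cycling level in LNP-Sirpa and 2.44 and 2.72 times in control. The histone gene H2ac19, outside that list, went the other way and was among the 15 lowest genes. Its median log2 ratio was -0.95 (-1.13 to -0.88). Histone genes are near copies of each other and their transcripts mostly lack a polyA tail, which the assay primes on, so single members are uncertain.

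**Figure D2:**
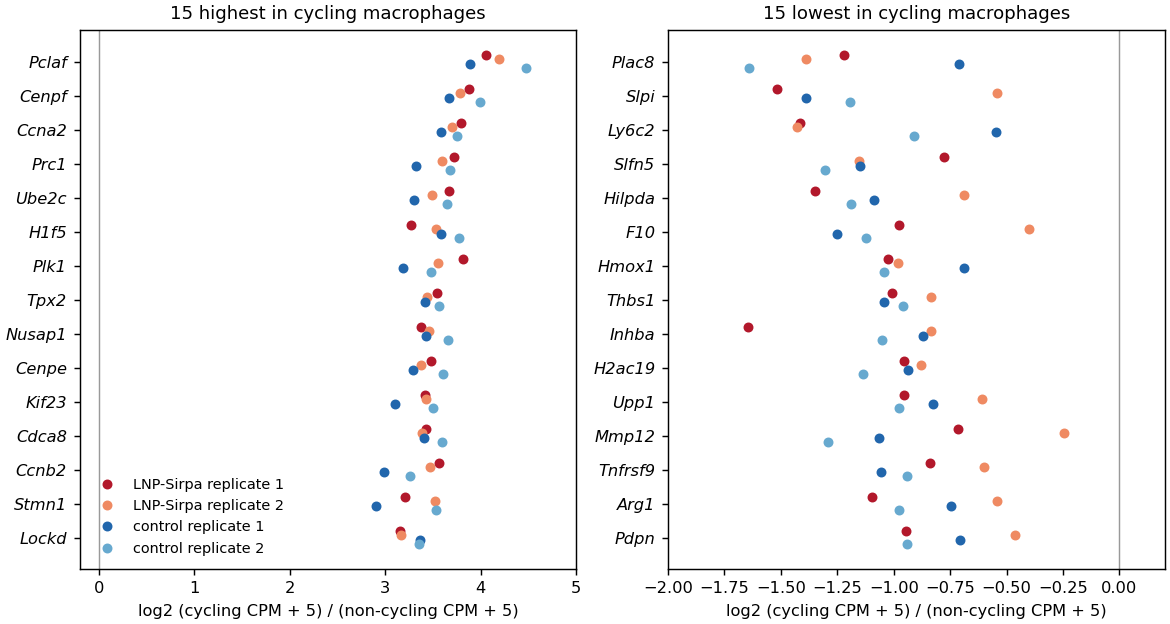
Log2 ratio of cycling over non-cycling CPM, 5 CPM added to each (horizontal axis), for the 15 highest and 15 lowest genes, 1 point per library. Pclaf leads at a median of 4.13 and Plac8 is lowest at -1.30, and every point lies on its gene's side of 0.

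The regulators of entry into the cycle were split. D cyclins, which respond to growth factors, differed little: Ccnd1 had 580.1 and 437 CPM in cycling against 655 and 483 CPM in non-cycling macrophages of LNP-Sirpa, and 447 and 346 against 432 and 311 CPM in control. Cdk4, their kinase partner, had a median log2 ratio of 0.62 (0.51 to 0.72), E2f2, an activating E2F factor, of 0.88 (0.81 to 1.14) and the pocket protein gene Rbl1 of 1.28 (1.11 to 1.47). The E cyclins, which open S phase, were higher in every library, Ccne1 at 1.32 (0.97 to 1.38) and Ccne2 at 1.91 (1.16 to 2.00). Of 14 G1 genes, 8 were higher and 1, Ccnd2, was lower in all libraries, beside 37.8% and 28.9% of all genes. With TMM factors over the 8 sums together 6 were higher and 3 lower, beside 22.9% and 44.1%.

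Inhibitors of cyclin-dependent kinases and arrest genes were split, with 5 of 14 genes higher and 5 lower in all libraries, beside 37.8% and 28.9% of all genes, so neither count stood apart. Cdkn2c, which encodes p18, an inhibitor of CDK4 and CDK6, had 41.0 and 29.1 CPM in cycling against 7.48 and 7.72 CPM in non-cycling macrophages of LNP-Sirpa, and 51.1 and 49.7 against 12.2 and 13.2 CPM in control. Cdkn2d, which encodes the related p19, had a median ratio of 1.51 (1.34 to 1.72). Both were thus higher, not lower, in the cycling cells. Cdkn1a, which encodes p21, was among the most abundant and stood at 503 and 876 CPM in cycling against 549.7 and 724 CPM in non-cycling macrophages of LNP-Sirpa, and at 419.6 and 480.4 against 403 and 446 CPM in control. The antiproliferative genes Btg1 and Btg2 were lower in the cycling state of every library, with medians of -0.42 (-0.48 to -0.21) and -0.54 (-0.66 to -0.38).

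Promoters of the cell cycle genes carry the letters of the known elements more often than promoters at large. The windows are the 250 bases before each start in a RefSeq table of build GRCm38.p6, read on both strands, and the 150 bases next to the start are printed 5′ to 3′ along the gene's strand, with matches in capitals. An E2F-type octamer (TTTCCCGC, TTTCGCGC, TTTGCCGC or TTTGGCGC) lay in 8 of 36 matched S phase promoters (22.2%), against 2.16% of 27025 genes. The CHR letters TTTGAA lay in 20 of 50 matched G2 and M promoters (40%), against 18.3% of all genes, and CCAAT in 38 of 50 (76%), against 37.5%. S phase promoters also held CCAAT more often, in 21 of 36 (58.3%), but CHR in 7 of 36 (19.4%), near the share of all genes. A match is a description of letters and not a site. Hells (chr19:38930840-38930989, plus strand), a chromatin remodeller of S phase, shows the E2F-type letters, and Prc1 (chr7:80294326-80294475, plus strand) and Ube2c (chr2:164769779-164769928, plus strand) show CCAAT upstream of CHR, which in Ube2c read ATTGG and TTCAAA because they lie on the other strand.
Hells: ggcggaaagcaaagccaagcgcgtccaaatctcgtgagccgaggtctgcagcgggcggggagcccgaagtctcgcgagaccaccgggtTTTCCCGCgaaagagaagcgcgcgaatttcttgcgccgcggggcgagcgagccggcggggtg
Prc1: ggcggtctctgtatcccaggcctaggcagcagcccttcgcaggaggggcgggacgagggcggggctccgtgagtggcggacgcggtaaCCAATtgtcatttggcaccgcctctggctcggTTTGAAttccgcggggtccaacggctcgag
Ube2c: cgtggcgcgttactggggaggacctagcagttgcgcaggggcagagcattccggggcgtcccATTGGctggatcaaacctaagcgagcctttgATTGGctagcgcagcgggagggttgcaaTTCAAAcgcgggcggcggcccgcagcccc
Hells itself had 38.3 and 44.1 CPM in cycling against 12.2 and 15.03 CPM in non-cycling macrophages of LNP-Sirpa, and 32.2 and 42.1 against 11.4 and 9.87 CPM in control.

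The genes lowest in the cycling state included monocyte genes, Arg1 and genes known to respond to hypoxia. Plac8, a gene of blood monocytes, had 109.9 and 52.8 CPM in cycling against 263 and 146 CPM in non-cycling macrophages of LNP-Sirpa, and 25.8 and 11.3 against 45.4 and 45.7 CPM in control. Ly6c2, which marks inflammatory monocytes, had 116 and 59.5 CPM against 318 and 169 CPM in LNP-Sirpa, and 17.6 and 6.94 against 28.0 and 17.4 CPM in control, again with the cycling state first. Its reads may be shared with other Ly6 genes. Arg1, which breaks down arginine, had 1302 and 5178 CPM in cycling against 2791 and 7552 CPM in non-cycling macrophages of LNP-Sirpa, and 748 and 797 against 1259 and 1573 CPM in control. Each of these was lower in the cycling state of all 4 libraries, although the level in both states differed several-fold between libraries. Hilpda, a lipid droplet protein induced by hypoxia, had a median of -1.14 (-1.35 to -0.69). Hmox1, heme oxygenase, ranged from -1.04 to -0.69, and Thbs1, thrombospondin, from -1.04 to -0.83. The metalloprotease Mmp12 ranged from -1.29 to -0.24.

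Whole lists lay lower too. Of 16 lipid-associated macrophage genes, 16 were lower in cycling macrophages of all libraries, with a median log2 ratio of -0.45, beside 28.9% of all genes. Fabp5, which carries fatty acids, had 368 and 825 CPM in cycling against 561 and 1188 CPM in non-cycling macrophages of LNP-Sirpa, and 284 and 437 against 409 and 814 CPM in control. Of 22 glycolysis and hypoxia genes, 21 were lower, with a median of -0.36. Vegfa, the endothelial growth factor induced by hypoxia, had a median of -0.77 (-0.85 to -0.40), while the enzyme Gapdh had -0.18 (-0.23 to -0.10). Vegfa thus lay further below its non-cycling level than this enzyme. Of 16 inflammatory genes 12 were lower in all libraries, among them Il1b at -0.76 (-1.07 to -0.50), and 15 with TMM factors over the 8 sums together. Of 24 type I interferon genes 17 were lower, and 20 with those factors. Of 10 MHC class II genes 7 were lower, such as H2-Aa at -0.43 (-0.52 to -0.24). These shares of lists stand beside 28.9% of all genes with the scaling within states and 44.1% with the joint one. The states were split by UMI counts, and non-cycling macrophages were shallower, with medians of 5268 to 7266 UMIs against 10506 to 12360. The part of depth in these ratios, and in those of the single genes above, was not tested.

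Resident macrophage genes were mixed. Of 16, 3 were higher (Fcrls, Lyve1 and Igfbp4) and 5 lower in all libraries, beside 37.8% and 28.9% of all genes, with a median of 0.04. With the joint TMM factors 2 were higher and 6 lower, beside 22.9% and 44.1%. Their summed level was 0.987 and 0.816 times the non-cycling level in LNP-Sirpa and 0.979 and 0.909 times in control. Fcrls, an Fc receptor-like gene of resident macrophages, had 159.8 and 36.5 CPM in cycling against 113 and 35.2 CPM in non-cycling macrophages of LNP-Sirpa, and 652 and 395 against 546 and 313 CPM in control. Csf1r differed by at most 0.07 in log2 between the states in any library. Of 19 growth factor receptor and signal genes, 12 were lower in all libraries, beside 28.9% of all genes, and 15 with the joint TMM factors, beside 44.1%.

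**Figure D3:**
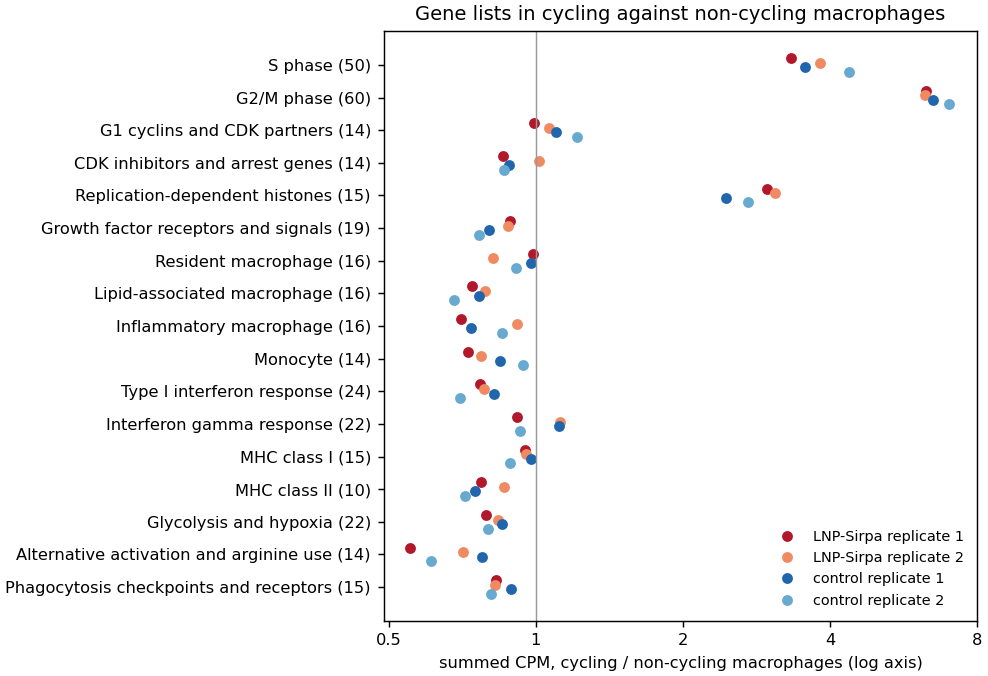
Ratio of summed CPM, cycling over non-cycling macrophages (horizontal log axis), for each gene list with the number of genes found in the files, 1 point per library. The S phase, G2/M and histone lists lie right of 1 in all libraries, and the lipid, inflammatory, MHC class II and glycolysis lists lie left of 1.

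Gated macrophages were also sorted by 3 marker genes of a state, which the rule did not use. Gates required at least 10 UMIs per 10000 over the 3 genes. Where resident genes (Folr2, Cbr2 and Fcrls) were high, 13.8% and 10.9% of cells were cycling in LNP-Sirpa, 45 of 326 and 6 of 55 cells, and 24.3% and 16.6% in control, 564 of 2321 and 374 of 2253 cells. Where lipid genes (Gpnmb, Acp5 and Atp6v0d2) were high, 0 of 44 and 0 of 36 cells were cycling in LNP-Sirpa, which allows shares of up to 8.03% and 9.64% (95% Wilson), and 1 of 34 and 4 of 140 cells in control, 2.94% and 2.86%. Cells with lipid genes were shallow, however, with medians of 3571 and 3876 UMIs in LNP-Sirpa and 4770.5 and 4848 in control. With a floor of 5 cycling UMIs per 10000 in place of 4 UMIs, their shares were 4.55% and 11.1% in LNP-Sirpa and 11.8% and 6.43% in control.

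Where Inhba, Thbs1 and Cxcl3 were high, 2.53% and 4.61% of cells were cycling in LNP-Sirpa and 6.36% and 4.01% in control. The monocyte gate (Ly6c2, Plac8 and Chil3) gave 5.91% and 3.81% in LNP-Sirpa and 10.4% and 2.15% in control. The interferon gate (Ifit1, Ifit2 and Ifit3) gave 6.48% and 8.04% in LNP-Sirpa and 9.09% and 3.26% in control. The gate on Ccl17, Mgl2 and Ear2, genes of macrophages and dendritic cells rich in MHC class II, gave 11.6% and 10.5% in LNP-Sirpa and 18.1% and 10.6% in control. In every library the resident gate lay above the inflammatory, monocyte and interferon gates, but not beyond the counting interval in LNP-Sirpa replicate 2, where it held 55 cells. With cells thinned to 3000 UMIs that library turned round against the interferon gate, with 8.33% in the resident and 11.1% in the interferon gate. With 2 libraries a group no gate could pass the exact permutation test, whose p-values ran from 0.333 to 1 (2 libraries against 2, two-sided, unadjusted). The resident and lipid gates reached 0.333, the smallest allowed, with no overlap between the groups, though the lipid gate held few cycling cells.

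The gates themselves differed in size. Resident genes were high in 9.97% and 1.42% of gated macrophages in LNP-Sirpa and in 48.2% and 31.3% in control. Among cycling macrophages, 11.9% and 1.20% of them were in the resident gate in LNP-Sirpa, and 54.5% and 36.5% in control. A resident gate thus held many of the cycling cells of control and few of those of LNP-Sirpa. The interferon gate held 10.3% and 1.79% of them in LNP-Sirpa and 0.387% and 0.293% in control.

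**Figure D4:**
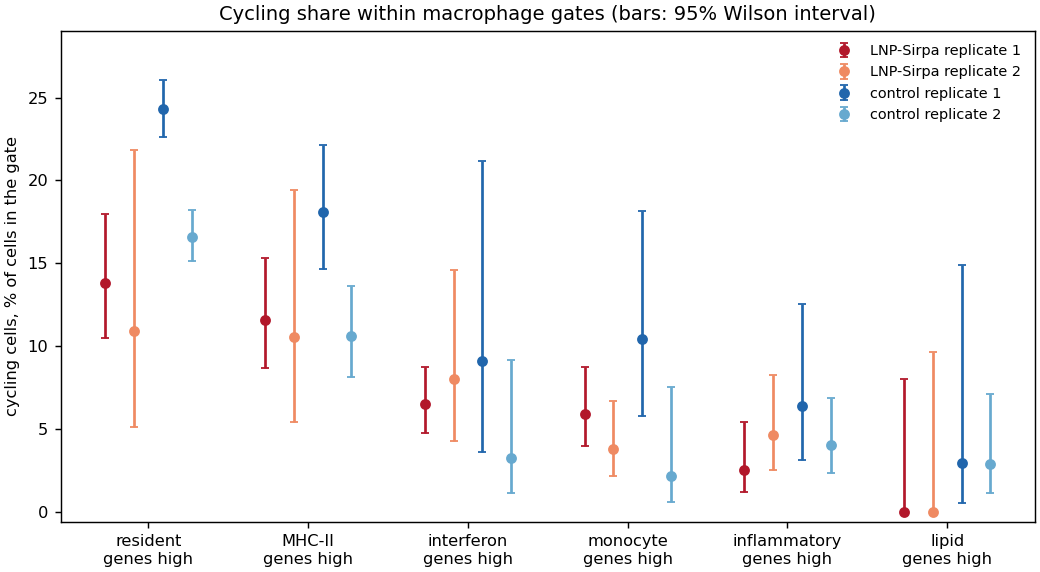
Share of cells in each marker gate that were cycling (vertical axis, percent), 1 point per library with its 95% Wilson interval. The resident gate is highest in control replicate 1, at 24.3%, and the lipid gate holds 0 cycling cells in both LNP-Sirpa libraries.

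The balance of the phases overlapped between the groups. The log2 ratio of the S list over the G2 and M list was -1.23 and -0.89 in LNP-Sirpa and -1.01 and -0.90 in control, a difference of -0.11 with an exact permutation p of 1 (2 libraries against 2, two-sided). Cell by cell, with 3000 UMIs each, 76.8% and 70.6% of cycling macrophages held more G2 and M than S transcripts in LNP-Sirpa, and 72.8% and 69.7% in control. The groups overlapped by this measure too, and Mki67, Top2a, Birc5 and Cdca3, which chose the cells, are themselves known to peak late in the cycle.

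Sirpa transcripts were read first in the treatment comparison, although the series title speaks of the protein, which transcripts do not check. In cycling macrophages Sirpa had 377 and 363 CPM in LNP-Sirpa and 460.2 and 455 CPM in control. The log2 fold change was -0.31 ± 0.19 (SE) with an adjusted p of 0.542 by edgeR's quasi-likelihood test with Benjamini-Hochberg adjustment over 12624 genes, so the difference did not pass. Cd47, the ligand, had 334 and 229 CPM in LNP-Sirpa and 153 and 139.8 CPM in control, 0.94 ± 0.22 in log2 (edgeR adjusted p = 0.113). It did not pass here but did in 5 of 16 alternative settings, DESeq2 among them. Its log2 fold change ran from 0.64 to 1.18 over the 16.

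In cycling macrophages, 55 of 12624 genes passed the test, 48 higher and 7 lower in LNP-Sirpa. That is 0.436% of genes tested, 0.38% higher and 0.0554% lower, and 1771 genes had an unadjusted p under 0.05. The calls lie close to the threshold, at adjusted p-values of 0.0347 to 0.0498. Members of the type I interferon and interferon gamma lists were among the genes that rose. Leaving out control replicate 1 left 1 call, control replicate 2 102, LNP-Sirpa replicate 1 864 and LNP-Sirpa replicate 2 579. Without the members whose UMI total lay above the 95th percentile of gated cells (64 and 92 cells in LNP-Sirpa and 141 and 177 in control) 1 call was left. Of the 21 calls chosen by the naming rule given under processing, all but 1 were lost without those members. None of the 21 changed direction there or with any 1 library left out, but none kept its call without control replicate 1.

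Ly6a, which encodes the surface protein Sca-1, had the largest rise among the genes at 50 CPM or more. It had 1650.5 and 1854 CPM in LNP-Sirpa and 82.6 and 182 CPM in control, a log2 fold change of 3.73 ± 0.42 (edgeR adjusted p = 0.0396). Rsad2, the antiviral enzyme viperin, had 391 and 204 CPM in LNP-Sirpa and 25.98 and 24.3 CPM in control, 3.56 ± 0.34 (adjusted p = 0.0354 by edgeR). The groups lie far apart for both genes, while LNP-Sirpa replicate 1 exceeds replicate 2 in Rsad2. Slfn1, of the interferon-induced Schlafen family, had 149 and 76.4 CPM in LNP-Sirpa and 10.1 and 15.001 CPM in control. Ms4a4c, a membrane protein of monocytes, had 145 and 94.5 CPM in LNP-Sirpa and 11.9 and 17.6 CPM in control. Zbp1, a sensor of double-stranded nucleic acid in the Z form, had 308 and 166 CPM in LNP-Sirpa and 42.5 and 44.4 CPM in control. These stood in the same order over the libraries, with log2 fold changes of 3.17 ± 0.39, 3.02 ± 0.29 and 2.44 ± 0.31. Near copies in the Ly6, Schlafen and Ifitm families make single members uncertain.

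Other genes that rose serve different functions. Ass1, argininosuccinate synthase, which rebuilds arginine from citrulline, had 70.6 and 132 CPM in LNP-Sirpa and 19.1 and 21.5 CPM in control, 2.32 ± 0.31 in log2. Fcgr4, an activating receptor for IgG, had 360.0 and 361 CPM in LNP-Sirpa and 69.5 and 114 CPM in control, 1.98 ± 0.26. Ifitm3, which restricts viral entry, was the most abundant of those named, with 2257 and 1909.8 CPM in LNP-Sirpa and 556 and 536 CPM in control, 1.93 ± 0.25. In these genes, unlike in Rsad2, the LNP-Sirpa libraries were close or replicate 2 was the higher. Gbp2, an interferon-induced GTPase of a family with near copies, had 470.4 and 454 CPM in LNP-Sirpa and 80.1 and 136 CPM in control. Phf11b had 157 and 89.98 CPM in LNP-Sirpa and 31.0 and 25.6 CPM in control. The edgeR adjusted p was 0.0485 for Ifitm3 and 0.0488 for Ass1, Fcgr4, Gbp2, Phf11b and Zbp1.

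The 7 lower genes include 2 at 50 CPM or more. Igfbp4, which binds insulin-like growth factors and is on the resident macrophage list, had 57.1 and 38.7 CPM in LNP-Sirpa and 181 and 166 CPM in control, -1.86 ± 0.22 in log2 (edgeR adjusted p = 0.0396). Olfml3, a secreted protein, had 35.1 and 29.9 CPM in LNP-Sirpa and 80.8 and 70.2 CPM in control, -1.22 ± 0.18 (edgeR adjusted p = 0.0488). The other 5, Rapgef5, Fxyd2, Igfbp6, Lyl1 and Col14a1, lie under 50 CPM and are named after their values were seen, at log2 fold changes of -1.26 or below. Fibroblast markers, whose sums are given below, were lower in LNP-Sirpa too, and their part in these falls was not tested.

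By lists, all 24 type I interferon genes tested had positive log2 fold changes in cycling macrophages, with a median of 2.59, beside -0.00 over all genes tested, but 3 of them passed, Rsad2, Zbp1 and Ifi205. The CPM of the groups did not overlap in any of the 24, all higher in LNP-Sirpa, beside 22% of all genes tested that were higher and 23.1% that were lower without overlap. All 24 had an unadjusted p under 0.05, and DESeq2 called 22. Ifi205, a nucleic acid sensor of a family with near copies, had 63.0 and 39.6 CPM in LNP-Sirpa and 8.42 and 10.2 CPM in control. Isg15, a ubiquitin-like protein and the standard marker of the response, had 1196 and 398 CPM in LNP-Sirpa and 74.2 and 86.4 CPM in control, with an edgeR adjusted p of 0.0820. The whole list summed to 5195 and 2245 CPM in LNP-Sirpa and 781 and 719 CPM in control, so both LNP-Sirpa libraries were above both controls and replicate 1 was more than replicate 2.

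Of 21 interferon gamma genes tested, 4 rose, Gbp2, Gbp4 and Batf2 among them, with a list median of 1.60. All 21 were higher without overlap between the groups, beside 22% of all genes tested. An unadjusted p under 0.05 was reached by 19 of the 21, and DESeq2 called 18. Gbp4, a guanylate-binding protein gene induced by interferon, had 75.3 and 57.3 CPM in LNP-Sirpa and 11.4 and 18.7 CPM in control, 2.14 ± 0.27 in log2 (edgeR adjusted p = 0.0488). Cxcl9, which draws T cells, had 2592 and 2561 CPM in LNP-Sirpa and 272 and 752 CPM in control, with an edgeR adjusted p of 0.103. Of 15 MHC class I genes 2 rose past the threshold, H2-T23 and H2-Q7, both of families with near copies, with a list median of 1.02. All 15 had positive fold changes, an unadjusted p under 0.05 and no overlap between the groups, beside 22% of all genes tested that were higher without overlap. DESeq2 called 13 of the class I genes. By edgeR 0 of 10 class II genes passed, with a median of 0.75, while 3 had an unadjusted p under 0.05 and DESeq2 called 1. H2-Aa had 3488 and 4094 CPM in LNP-Sirpa and 1317 and 3073 CPM in control. Background beside these list counts is the 0.38% of all genes that rose.

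Promoters of 2 interferon genes that rose are printed as the cell cycle ones were, with an interferon-stimulated response element (ISRE) in capitals, searched as GAAA, NN and GAAA in a row. This match lay in 11 of 20 matched type I interferon promoters (55%), in 11 of 15 interferon gamma promoters (73.3%) and in 10 of the 34 matched genes that rose (29.4%), against 3.46% of all genes. Rsad2 lies at chr12:26456453-26456602 and Ifi205 at chr1:174031756-174031905, both on the minus strand.
Rsad2: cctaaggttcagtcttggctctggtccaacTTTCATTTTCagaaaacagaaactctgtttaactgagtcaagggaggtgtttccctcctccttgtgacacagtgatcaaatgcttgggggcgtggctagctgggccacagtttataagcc
Ifi205: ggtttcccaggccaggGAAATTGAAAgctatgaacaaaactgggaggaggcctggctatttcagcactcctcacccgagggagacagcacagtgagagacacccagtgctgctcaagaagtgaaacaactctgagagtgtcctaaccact
Of the same 34 matched genes that rose, 0 held an E2F-type octamer, against 2.16% of all genes, 12 held the CHR letters (35.3%), against 18.3%, and 16 held CCAAT (47.1%), against 37.5%.

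Within the cycling cells, the S phase and the G2 and M lists held no call. By edgeR 0 of 50 S phase genes passed (median log2 -0.09, 2 at an unadjusted p under 0.05) and 0 of 60 G2 and M genes (median -0.07, 7 at an unadjusted p under 0.05), and DESeq2 called 0 in either list. Pclaf, for example, had 284 and 414 CPM in LNP-Sirpa and 353 and 371 CPM in control, -0.05 ± 0.23. Of 14 histone genes tested 1 passed, H2ac8, beside 0.38% of all genes tested that rose. It had 51.4 and 39.4 CPM in LNP-Sirpa and 5.50 and 8.54 CPM in control, 2.69 ± 0.26 in log2 (edgeR adjusted p = 0.0347). The histone list had a median of -0.17.

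Resident macrophage genes lay lower in LNP-Sirpa, with 15 of 16 fold changes negative and a median of -1.44. In 13 the groups did not overlap, beside 23.1% of all genes tested that were lower without overlap. By edgeR 1 of the 16, Igfbp4, passed (5 by DESeq2), beside 0.0554% of all genes tested that passed as lower. Folr2, a folate receptor, had 84.8 and 33.5 CPM in LNP-Sirpa and 194 and 137 CPM in control, with an edgeR adjusted p of 0.248. Cbr2 had 103 and 9.81 CPM in LNP-Sirpa and 335 and 323 CPM in control (edgeR adjusted p = 0.483), so LNP-Sirpa replicate 2 was the lowest in both. Arg1 showed the opposite spread, with 1302 and 5178 CPM in LNP-Sirpa and 748 and 797 CPM in control (edgeR adjusted p = 0.2496). All 22 glycolysis and hypoxia genes had positive fold changes, with a median of 0.48, and 0 passed by edgeR (4 at an unadjusted p under 0.05, 2 by DESeq2). The list summed to 8469 and 15507 CPM in LNP-Sirpa and to 8991 and 8335 CPM in control, so LNP-Sirpa replicate 1 lay within the controls. Of 14 monocyte genes tested 1 rose (Ms4a4c), of 14 alternative activation genes 2 (Ass1 and Pdcd1lg2) and of 15 phagocytosis genes 1 (Fcgr4). Beside these counts, 0.38% of all genes tested rose. Pdcd1lg2, which encodes the checkpoint ligand PD-L2, had 24.1 and 20.1 CPM in LNP-Sirpa and 4.00 and 4.31 CPM in control, 2.41 ± 0.22 (edgeR adjusted p = 0.0347).

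Transcripts of other cell types are given beside these results. The neutrophil list summed to 775 and 233 CPM in LNP-Sirpa and to 77.1 and 62.6 CPM in control, with positive fold changes in all 8 genes tested. The 13 T cell markers summed to 129 and 58.3 CPM in LNP-Sirpa and to 39.3 and 61.4 CPM in control. Gzma, a granzyme of NK and T cells on the NK marker list, rose, with 26.8 and 24.7 CPM in LNP-Sirpa and 4.496 and 6.54 CPM in control, 2.22 ± 0.24 (edgeR adjusted p = 0.0350). Mast cell and basophil genes reached 220.1 and 2.03 CPM in LNP-Sirpa and 59.6 and 11.8 CPM in control. The 8 fibroblast markers summed to 59.6 and 16.6 CPM in LNP-Sirpa and to 75.4 and 70.1 CPM in control. For the 8 B cell markers the sums were 9.09 and 5.41 CPM in LNP-Sirpa and 20.6 and 14.4 CPM in control. With members that held any UMI of Cd3d, Cd3e, Cd3g, Ncr1 or Klrb1c left out, 116 genes passed and all 21 named calls were kept. Members with other T or NK cell transcripts, such as Trac or Gzma, stayed in. With a C1q floor and no UMI of the dendritic genes Flt3, Xcr1 or Clec9a, limits chosen after seeing the data, 70 genes passed and 1 of the 21 was lost. The part of neutrophil, mast cell, basophil, fibroblast and B cell transcripts in the results was not tested. Nor was that of T and NK cell transcripts outside the rule.

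The same genes were tested in the non-cycling macrophages of the same libraries, where 71 of 13610 genes passed (0.522%), 53 higher (0.389%) and 18 lower (0.132%) in LNP-Sirpa. Of these, 28 passed in both states, all in the same direction, 50.9% of the cycling and 39.4% of the non-cycling calls. Leaving out either control library left 0 calls by edgeR in the non-cycling state, with 953 and 1273 genes at an unadjusted p under 0.05 (DESeq2 called 682 with all libraries), and leaving out LNP-Sirpa replicate 1 gave 1020 and replicate 2 663. Ly6a had 1759.8 and 1638 CPM in LNP-Sirpa and 72.9 and 144 CPM in control there, 3.97 in log2 beside 3.73 in the cycling state.

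**Figure D5:**
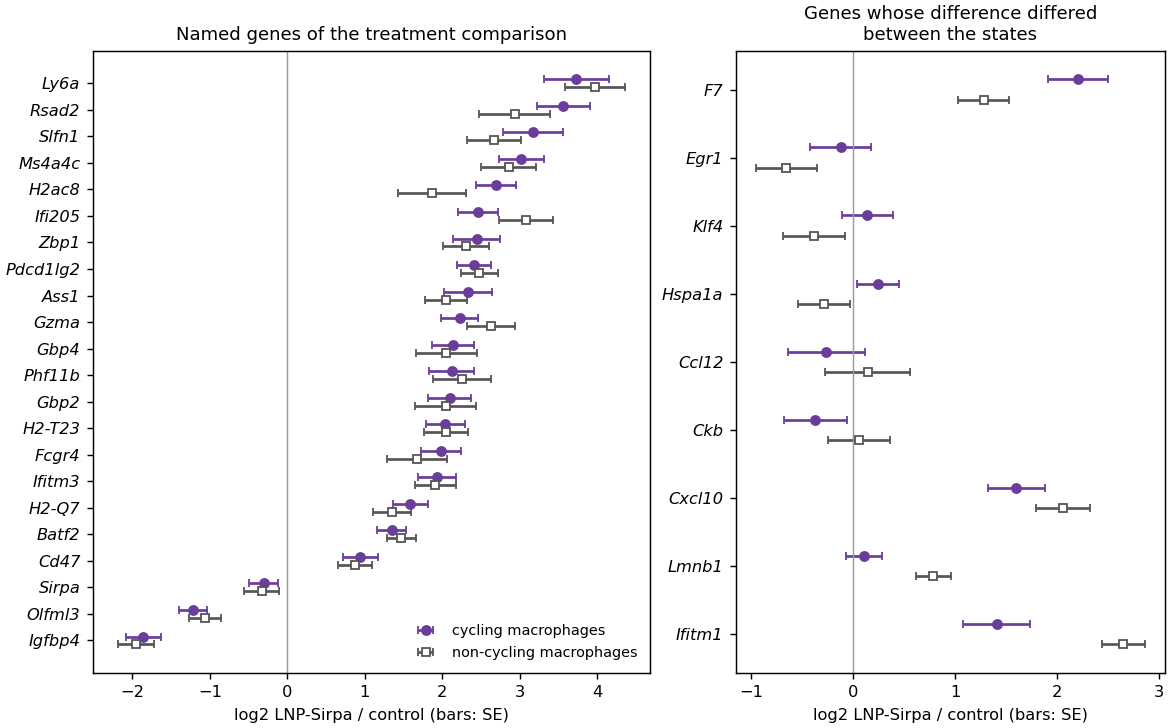
Log2 fold change of LNP-Sirpa over control (horizontal axis, bars are SE from edgeR, n = 2 libraries a group) in cycling macrophages (filled) and non-cycling macrophages (open). Left, genes of the treatment comparison, led by Ly6a at 3.73 in the cycling state; right, the genes whose fold change differed between the states.

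The difference between the states was tested itself, with the library as a block. Of 13792 genes, 10 passed (0.0725%), 4 with a larger (0.029%) and 6 with a smaller (0.0435%) log2 fold change in cycling macrophages. F7, coagulation factor VII, rose more in the cycling state: it had 48.8 and 86.9 CPM in LNP-Sirpa and 16.2 and 13.2 CPM in control among cycling macrophages, and 58.7 and 96.8 against 32.9 and 31.1 CPM among non-cycling ones. Ifitm1 went the other way, with 113 and 111 CPM in LNP-Sirpa and 27.8 and 56.3 CPM in control among cycling macrophages, and 157 and 149 against 20.5 and 28.0 CPM among non-cycling ones. Lmnb1, a lamin of the nuclear envelope that dividing cells make more of, had 187 and 153 CPM in LNP-Sirpa and 157 and 158 CPM in control among cycling macrophages, and 94.6 and 96.7 against 50.9 and 59.9 CPM among non-cycling ones. The states thus differed in control more than in LNP-Sirpa for Lmnb1. Leaving out 1 library in turn gave 11 to 70 calls, with 70 without LNP-Sirpa replicate 1, 59 without control replicate 1 and 44 without control replicate 2.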

How the data were processed

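Droplet RNA sequencing covered CD45+ cells of MC38 tumours, in 2 LNP-Sirpa and 2 control libraries. The authors deposited whole-number UMI counts per gene and barcode, written by PISA 1.0 per the file headers. Per the submitters' processing notes, STAR 2.5.1b and GRCm39 were used for alignment. How cells were called and which annotation was used is not given in the sources used here. Barcode names are running numbers: 5001 names occur in more than 1 library, and 0 same-named barcodes have equal UMI totals.

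The members and gene lists were chosen with earlier results of these data known. No further cell filter was applied. No doublet caller was run, and an alternative leaves out members above the 95th percentile of UMIs. UMIs were summed per library and state. The treatment was tested with edgeR 4.0.16 and limma 3.58.1 in R 4.3.3 (TMM within each state, filterByExpr, robust quasi-likelihood F test) with Benjamini-Hochberg adjustment and a threshold of 0.05. The interaction used the 8 sums with the library as a block. Each SE is the log2 fold change divided by the root of F. Shares used exact permutation tests. The fit was tested on simulated data.

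Named genes are the 10 largest rises and falls past the threshold at a mean of 50 CPM or more, up to 4 called members per list, Sirpa and Cd47, the 5 largest interactions in each direction at 50 CPM, and the 15 highest and 15 lowest ratios between the states with the 3 highest of the S and G2/M lists. Not each is given in the text, and some genes are not reported here. Predicted genes, ribosomal and mitochondrial genes, receptor segments and the genes of the rule were left out of these selections. Other genes are named as members of the lists, as examples. Gates by 3 genes left 30 to 823 cells within 8 to 12 UMIs per 10000. Alternatives used DESeq2 1.42.0 and its size factors, no filter on low counts, other floors, thinned sums or cells, each library left out and the replicate number as a block. Python 3.11.15 was used with numpy 2.4.6, pandas 2.3.3, scipy 1.17.1 and matplotlib 3.10.9. Promoters come from RefSeq (GRCm38.p6), matched by symbol.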

Additional observations from a re-analysis of the deposited data

Results flagged for a closer look

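For 9 genes the log2 fold change of LNP-Sirpa over control differed between cycling and non-cycling macrophages by a test of the difference itself (edgeR, library as a block, Benjamini-Hochberg over all genes). The difference, cycling minus non-cycling, was 0.88 for F7 (adjusted p = 0.00218), 0.52 for Egr1 (0.0181), 0.50 for Klf4 (0.0131) and 0.48 for Hspa1a (0.0293). Egr1 and Klf4 are immediate early and macrophage transcription factors and Hspa1a encodes a heat shock protein. Klf4 had 586 and 767 CPM in LNP-Sirpa and 528 and 701 CPM in control among cycling macrophages, and 603 and 953 against 884 and 1143 CPM among non-cycling ones. None of these 3 passed the treatment test within either state.

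The difference was -1.28 for Ifitm1 (edgeR adjusted p = 0.00124), -0.74 for Lmnb1 (0.00623), -0.51 for Cxcl10 (0.00623), -0.49 for Ckb (0.0181) and -0.46 for Ccl12 (0.00623). Cxcl10, an interferon-induced chemokine, had 652 and 844 CPM in LNP-Sirpa and 192 and 301 CPM in control among cycling macrophages, and 577 and 639.7 against 117 and 175 CPM among non-cycling ones, so it was higher in LNP-Sirpa in both states and by less in the cycling one. A 10th gene past the threshold, Ccl17, lies under 50 CPM and was named after its values were seen, at -1.20. Of the 9, 6 were lost without LNP-Sirpa replicate 2, 4 without the members of highest UMI total and 3 with DESeq2, with no change of direction. The part of RNA quality or of other cells in these differences was not tested.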

How the results depend on the processing

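The 55 treatment calls in cycling macrophages became 436 with DESeq2, 1107 with no filter on low counts and 147 with sums thinned to the smallest. They became 116 without members holding a UMI of the T or NK genes of the rule, 11 at a phagocyte floor of 200 per 10000 and 1 without the members of highest UMI total. Leaving out 1 library gave 1 to 864. The 71 calls in non-cycling macrophages became 682 with DESeq2 and 1268 with no filter, and 0 to 1020 with 1 library left out. The 10 interaction calls became 55 at a floor of 3 cycling UMIs, 20 without T or NK UMIs, 114 with no filter and 17 at the higher phagocyte floor, and 11 to 70 with 1 library left out. No named treatment gene changed direction. Of the 21 calls, 15 were lost at the higher phagocyte floor and 6 at 3 cycling UMIs. None was kept without control replicate 1, which left 1 control library. An alternative chosen after seeing the data, with a C1q floor and no UMI of Flt3, Xcr1 or Clec9a, gave 70 calls and lost 1 of the 21. The cause was not tested.

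The differences between replicates 1 and 2 were weakly correlated between the groups over genes (r = 0.0927). This single value cannot show whether same-numbered libraries were paired. With the replicate block, 652 genes passed in cycling and 396 in non-cycling macrophages, the cycling share differed by -5.59 points (exact permutation p = 0.5, the smallest for 2 pairs) and the S to G2/M ratio by -0.11 (exact permutation p = 1).

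The difference in cycling share ranged from -9.21 to -1.98 points with 1 library left out and kept its sign in every alternative run. The S to G2/M difference ranged from -0.28 to 0.06, turning to 0.059 without LNP-Sirpa replicate 1. By gate, the ranges with 1 library left out were -11.9 to -4.24 points (resident), -2.94 to -2.86 (lipid), -2.79 to -0.44 (inflammatory), -5.56 to 2.71 (monocyte), -1.83 to 4.00 (interferon) and -7.04 to 0.47 (MHC-II). Other settings moved the lipid gate further, from -5.53 with thinned cells to -1.07 at 6 cycling UMIs, and the resident gate from -14.8 at a gate of 20 UMIs per 10000 to -5.51 without T or NK UMIs. The inflammatory gate turned to 0.13 at a gate of 20 UMIs per 10000, the interferon gate to -1.26 at 5 cycling UMIs per 10000 and the MHC-II gate to 0.25 with thinned cells. With 2 libraries a group and adjusted p-values near the threshold, counts of calls rest on single libraries, and lipid and interferon gates rest on few cycling cells.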

Other observations

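Btg1, an antiproliferative gene, had 361 and 306 CPM in LNP-Sirpa and 161 and 222 CPM in control among cycling macrophages, with an edgeR adjusted p of 0.159. Nos2, inducible nitric oxide synthase, had 45.0 and 118 CPM in LNP-Sirpa and 3.71 and 5.83 CPM in control among cycling macrophages, 4.10 ± 0.56 in log2, and did not pass there (edgeR adjusted p = 0.0639), while in non-cycling ones it passed at 3.44 (edgeR adjusted p = 0.0313). The difference between the states was not past the threshold for Nos2. Cd274, which encodes the checkpoint ligand PD-L1, had 167 and 225 CPM in LNP-Sirpa and 32.0 and 61.7 CPM in control among cycling macrophages (edgeR adjusted p = 0.0661). Taken over all gated macrophages with plain totals, the S phase list summed to 1132 and 1176 per 1000000 UMIs in LNP-Sirpa and to 1641 and 1362 in control, and the G2/M list to 1832 and 1657 in LNP-Sirpa and to 2583 and 1996 in control. Both lists lay below both control libraries in both LNP-Sirpa libraries, with an exact permutation p of 0.333 each, the smallest that 2 libraries against 2 allow.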
